A study of Mus musculus with 7 samples.

Results

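The 7 genes described here encode subunits of the GABA-A receptor, the chloride channel that carries most fast synaptic inhibition in the cortex. They are 4 alpha subunit genes (Gabra2, Gabra3, Gabra4 and Gabra5), 2 beta subunit genes (Gabrb1 and Gabrb2) and the delta subunit gene Gabrd. They were taken by symbol from the 43626 gene identifiers of the table, and all 7 passed the filter on low values that left 17670 genes for testing. RNA was sequenced from the prefrontal cortex of 8 week old males of the C57BL/6J strain, with 3 wild-type (WT) libraries and 4 of the genotype labelled hDISC1AA/+. By the study's title, the work concerns phosphorylation of the scaffold protein DISC1 and the polarity of cortical neurons, and the comparison sets carriers of 1 hDISC1AA allele against WT. The labels do not describe the construct, do not say that each library came from a separate mouse, and name no treatment; the p-values measure the spread between these libraries, which may be technical.

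A GABA-A receptor is a ring of subunits, usually of alpha, beta and gamma type, with the GABA sites between alpha and beta. The alpha subunit sets much of the pharmacology: receptors with alpha2, alpha3 or alpha5 bind classical benzodiazepines, those with alpha4 do not. Receptors with delta, often together with alpha4, lie outside the synapse and answer to low ambient GABA, and alpha5 receptors are also largely extrasynaptic. Beta subunits carry contacts needed for assembly and trafficking. C57BL/6J mice are known to carry an intronic deletion in Gabra2 that lowers its expression, and both groups here were labelled with that strain.

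The genes lie in the clusters typical of the family (positions in GRCm38, the assembly that mm10 names, from GENCODE M21). Chromosome 5 holds Gabra2 (70957597 to 71095849, minus strand), Gabra4 (71569749 to 71658308, minus strand) and Gabrb1 (71658113 to 72149037, plus strand). Gabra4 and Gabrb1 are arranged head to head, and their annotated gene bodies overlap by 196 bases, 46 of them in exons of both. Without strand information, reads from those bases cannot be assigned to 1 of the 2 genes. Gabra5 (chromosome 7, 57407672 to 57510059, minus strand) lies next to and partly opposite another beta subunit gene, with no shared exon bases, and shares 148 exon bases with the antisense gene Gm9962 (22 to 93 reads per library). Gabrb2 is on chromosome 11 (42419757 to 42629028, plus strand), Gabra3 on chromosome X (72432681 to 72656848, minus strand) and Gabrd on chromosome 4 (155384980 to 155398112, minus strand).

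The RefSeq sequences (GRCm38.p6) before the start sites of the chromosome 5 genes are given because this cluster holds Gabra2 and Gabrb1, the members with the lowest means in hDISC1AA/+ relative to WT, and, between them, Gabra4. Capitals mark GC boxes, the letters GGGCGG on either strand, which stand in 35.7% of the 32851 windows of 300 bases in the RefSeq table. Bases in annotated coding-gene exons were left out, so that of Gabra4 ends 55 bases before its start.
Gabra2, chr5:71095850-71096099, minus strand: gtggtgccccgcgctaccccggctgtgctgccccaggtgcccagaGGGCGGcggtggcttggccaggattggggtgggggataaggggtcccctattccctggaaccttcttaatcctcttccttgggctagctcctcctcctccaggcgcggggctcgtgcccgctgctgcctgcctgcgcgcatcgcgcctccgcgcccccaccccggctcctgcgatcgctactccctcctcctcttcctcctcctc
Gabra4, chr5:71658364-71658558, minus strand: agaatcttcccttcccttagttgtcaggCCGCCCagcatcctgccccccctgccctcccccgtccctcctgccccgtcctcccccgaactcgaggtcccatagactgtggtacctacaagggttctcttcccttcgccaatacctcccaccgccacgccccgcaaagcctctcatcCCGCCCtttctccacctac
Gabrb1, chr5:71699682-71699931, plus strand, before the more distal of its 2 RefSeq starts: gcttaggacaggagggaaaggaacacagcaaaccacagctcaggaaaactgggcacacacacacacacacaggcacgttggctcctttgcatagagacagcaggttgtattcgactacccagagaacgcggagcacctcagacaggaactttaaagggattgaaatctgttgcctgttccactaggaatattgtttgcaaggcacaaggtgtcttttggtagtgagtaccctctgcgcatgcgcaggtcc
The Gabra2 stretch holds 1 GC box and 70.0% G and C, that of Gabra4 holds 2 and 63.6%, and that of Gabrb1 holds 0 and 50.8%. The printed Gabrb1 stretch lies inside the annotated Gabrb1 gene. The window at the other RefSeq start of Gabrb1 lies inside the annotated Gabra4 gene and is not printed. It holds 66% G and C and 0 GC boxes. These are letters in windows, not measured binding.

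The libraries held 33512557 to 63845254 reads assigned to genes. Each member had between 937 and 12611 reads per library, so that counting error was at most 3.27% of a value. The column of 1 hDISC1AA/+ library carries a number that matches no sample title and is called the untitled library; the others are named by group and replicate. A pair of libraries stood apart over all genes: WT replicate 1 on the first principal component (38.7% of the variance) and hDISC1AA/+ replicate 1 on the second (31%). The normalized counts of Disc1 itself averaged 76.0 ± 31.2 (SD, n = 3) for WT and 76.7 ± 11.2 (SD, n = 4) for hDISC1AA/+ (log2 fold change 0.08, limma adjusted p = 0.998); without WT replicate 1 the log2 fold change was -0.22. All 10 excitatory neuron markers and all 13 interneuron markers were above 0 in every library. "Normalized count" is the value deposited by the authors, reads divided by 1 size factor per library.

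None of the 7 members passed the test between hDISC1AA/+ and WT. Means were lower in hDISC1AA/+ for 6 genes and higher for 1, with the largest differences in Gabra2 (log2 fold change -0.47), Gabrb1 (-0.38) and Gabrb2 (-0.33) and the only higher mean in Gabrd (0.12). By limma with Benjamini-Hochberg adjustment over all genes tested, 0 of the 7 members and 0 of 17670 genes (0%) had an adjusted p under 0.05; the members' adjusted p lay between 0.974 and 0.998. At an unadjusted p under 0.05 there was 1 member, Gabrb1, where 431 genes (2.44%) lay below that value. On the recovered reads, edgeR's quasi-likelihood test called 0 members and 0 genes, with 1 member and 472 genes (2.67%) at an unadjusted p under 0.05. DESeq2 called 0 and 0, with 2 members and 604 of 28381 genes (2.13%). The values of the 2 groups overlapped for all 7 members; over all genes they did not for 5.04% (2.84% lower and 2.2% higher in hDISC1AA/+). The median log2 fold change was -0.18 over the members and -0.01 over all genes, of which 52.2% were lower. Without WT replicate 1 and hDISC1AA/+ replicate 1, 3 of 7 members were lower (50% of all genes), 0 had an unadjusted p under 0.05 (3.34% of all genes) and the members' median was 0.01. In bulk tissue, fewer cells that express a gene and less of its RNA per cell cannot be told apart.

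**Figure D1:**
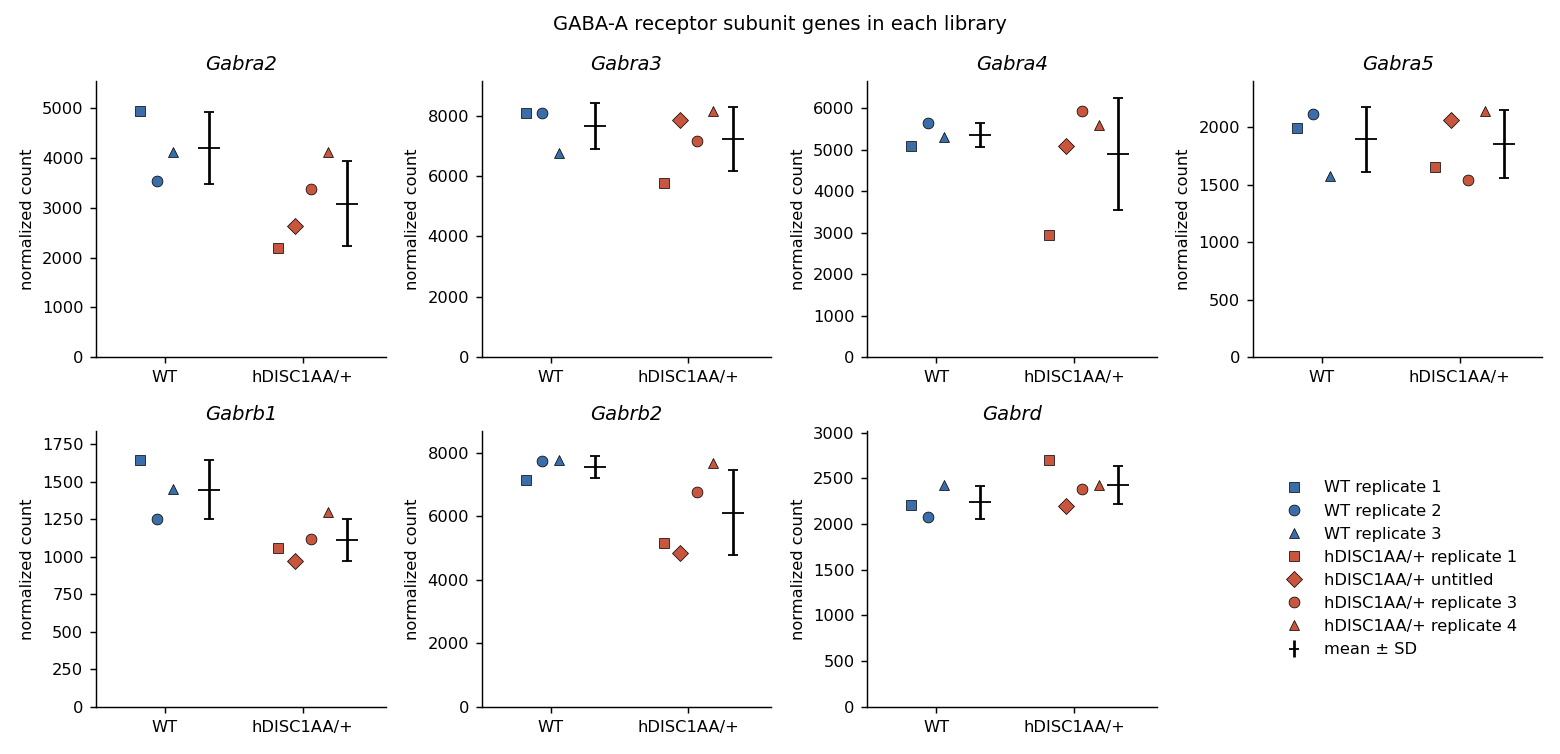
Normalized counts (vertical axes, from 0) of the 7 subunit genes in 3 WT (blue) and 4 hDISC1AA/+ libraries (red), 1 symbol per library, with the mean ± SD of each group in black. The groups overlap in all 7 panels, and hDISC1AA/+ replicate 1 (red square) is the lowest point for Gabra2, Gabra3 and Gabra4 and the highest for Gabrd.

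Of the alpha subunits, Gabra2 differed most. Gabra2, which encodes the alpha2 subunit found at synapses on the axon initial segment of pyramidal neurons, had 4948, 3528 and 4118 normalized counts in WT replicates 1 to 3. The hDISC1AA/+ values were 2185 (replicate 1), 2639.8 (untitled library), 3373 (replicate 3) and 4124 (replicate 4). Replicate 4 lay within the WT range and the other 3 hDISC1AA/+ libraries lay below it. The means were 4198 ± 713 in WT (SD, n = 3) and 3081 ± 851 in hDISC1AA/+ (SD, n = 4), with a log2 fold change of -0.47 (95% CI -0.96 to 0.01; limma adjusted p = 0.974). Without WT replicate 1 and hDISC1AA/+ replicate 1, the highest and the lowest library, the log2 fold change was -0.20 (95% CI -0.61 to 0.21).

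Gabra4, which encodes the alpha4 subunit of extrasynaptic receptors, had 5091, 5654 and 5321 normalized counts in WT. Replicate 1 of hDISC1AA/+ had 2936, against 5084 in the untitled library, 5948 in replicate 3 and 5607 in replicate 4. A single library was low: replicate 1 lay far below the rest, and the other 3 reached from just under to just above the WT range. The fitted difference was -0.18 on the log2 scale (95% CI -0.69 to 0.33; limma adjusted p = 0.975). Without hDISC1AA/+ replicate 1 it was 0.05.

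Gabra3, which encodes the alpha3 subunit and lies on the X chromosome, had 8094, 8100.5 and 6761 normalized counts in WT and 5769 in replicate 1, 7851 in the untitled library, 7158 in replicate 3 and 8166 in replicate 4 of hDISC1AA/+. Its hDISC1AA/+ values lay on both sides of the WT range, with 1 below and 1 above it (log2 fold change -0.09, 95% CI -0.39 to 0.22; 0.02 without hDISC1AA/+ replicate 1). Gabra5, best known from the hippocampus and from deep cortical layers, had 1990, 2116 and 1576 in WT and 1657, 2062, 1540.3 and 2144 in replicate 1, the untitled library and replicates 3 and 4 of hDISC1AA/+. The spread was alike in both groups, and each group held both high and low libraries (log2 fold change -0.04, 95% CI -0.38 to 0.31). Without WT replicate 1 its log2 fold change was 0.005, on the other side of 0.

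Both beta subunit genes had lower means in hDISC1AA/+. Gabrb1, the beta subunit gene of the chromosome 5 cluster, had 1641, 1247 and 1449 normalized counts in WT. The 4 hDISC1AA/+ values were 1057 (replicate 1), 973 (untitled), 1115 (replicate 3) and 1300.3 (replicate 4). As for Gabra2, replicate 4 alone reached the WT range. The means were 1446 ± 197 (SD, n = 3) and 1111 ± 139 (SD, n = 4), with a log2 fold change of -0.38 (95% CI -0.68 to -0.07; limma unadjusted p = 0.0206, adjusted p = 0.974). The interval reached past 0 without the pair of libraries that stood apart (-0.26, 95% CI -0.55 to 0.03) and after correction for GC content and length (-0.20, 95% CI -0.56 to 0.16).

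Gabrb2, which encodes the beta2 subunit of the most common cortical receptors, had 7141, 7736 and 7768 normalized counts in WT, a narrow range. Among the hDISC1AA/+ libraries, replicate 1 had 5174, the untitled one 4836, replicate 3 6767 and replicate 4 7691. The untitled library and replicate 1 were low together, replicate 3 lay a little below WT and replicate 4 within it. The SD was 4.67% of the mean in WT and 22.0% in hDISC1AA/+. The means were 7548 ± 353 (SD, n = 3) and 6117 ± 1345 (SD, n = 4), with a log2 fold change of -0.33 (95% CI -0.69 to 0.04; limma adjusted p = 0.974). The difference was -0.30 without the pair of libraries and -0.26 after the GC and length correction, and with each library left out in turn it ranged from -0.45 (without replicate 4) to -0.22 (without the untitled library).

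Gabrd, which encodes the delta subunit of extrasynaptic receptors, had 2206, 2072 and 2428 normalized counts in WT. Counts in hDISC1AA/+ were 2696 for replicate 1, 2198 for the untitled library, 2382 for replicate 3 and 2429.9 for replicate 4. It was the one member with its highest value in hDISC1AA/+ replicate 1, and 2 of the hDISC1AA/+ libraries lay above the WT range. Its difference was 0.12 on the log2 scale (95% CI -0.12 to 0.36; limma adjusted p = 0.974), and 0.06 without the pair of libraries.

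**Figure D2:**
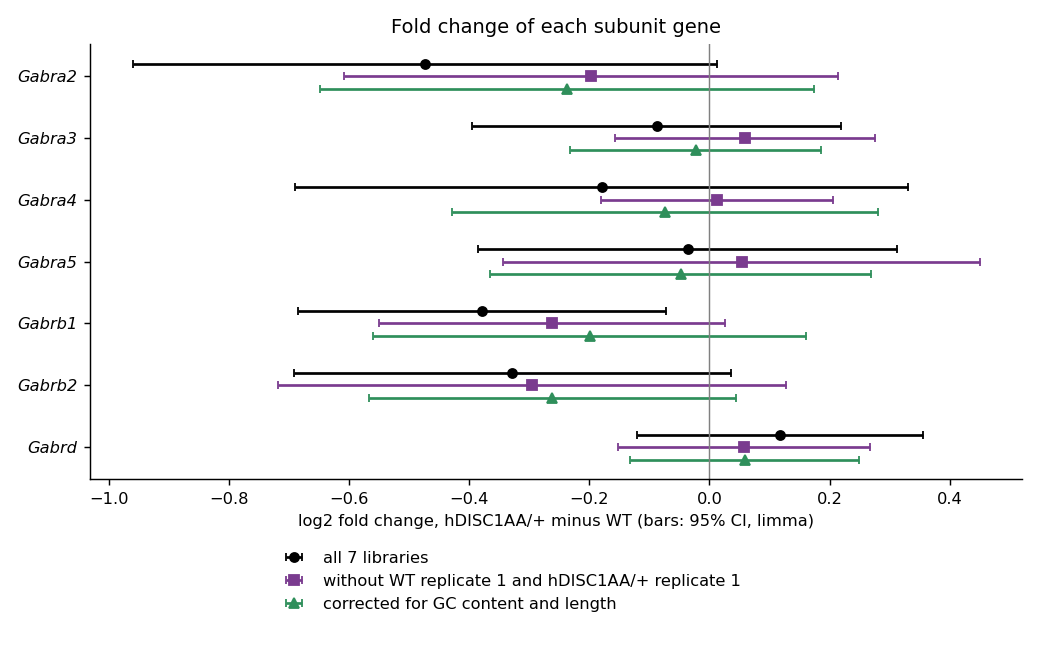
Log2 fold change of each subunit gene (hDISC1AA/+ minus WT, horizontal axis) with its 95% CI from limma, with all 7 libraries (black), without WT replicate 1 and hDISC1AA/+ replicate 1 (purple) and after correction for GC content and length (green). With all libraries the interval of Gabrb1 alone leaves out 0 (-0.68 to -0.07), and in the other 2 analyses every interval spans 0.

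With all libraries the 95% CI lay within 2-fold in either direction for all 7 members (77.4% of all genes tested) and within 1.5-fold for 3, Gabra3, Gabra5 and Gabrd (54% of all genes tested). For Gabra2, Gabra4, Gabrb1 and Gabrb2 the interval reached past 1.5-fold. That of Gabra2 also reached past 2-fold (a log2 value of -1) when WT replicate 2 (lower bound -1.16), WT replicate 3 (-1.08), hDISC1AA/+ replicate 3 (-1.09) or replicate 4 (-1.06) was left out. After the GC and length correction 6 members lay within 1.5-fold, all but Gabra2. The share of all genes within 1.5-fold was not counted after that correction, so this 6 has no background to compare.

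The libraries differed in which subunit genes were high or low. In hDISC1AA/+ replicate 1, 6 of the 7 members lay below the mean of the other 6 libraries. Gabra4 (-0.89 on the log2 scale against that mean) and Gabra2 (-0.77) were furthest down. Gabrb2 (-0.42), Gabra3 (-0.41), Gabrb1 (-0.26) and Gabra5 (-0.19) were nearer, and Gabrd was higher (0.24). In the untitled library Gabrb2 (-0.53), Gabra2 (-0.45) and Gabrb1 (-0.40) were low, while Gabra4 (0.03), Gabra3 (0.11) and Gabra5 (0.18) were not. In WT replicate 1 Gabra2 (0.61) and Gabrb1 (0.48) were high and the other 5 lay between -0.10 and 0.16. Gabra4 and Gabrb1, whose starts adjoin, were both low in hDISC1AA/+ replicate 1; in the untitled library and in WT replicate 1, Gabra4 (0.03 and 0.04) lay near the mean of the others while Gabrb1 did not.

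The transcripts of the members differ in base composition, and so did hDISC1AA/+ replicate 1 from the other libraries. GC content and length explained a share of 0.356 of the variance of log2 deviations there, and 0.0236 to 0.117 elsewhere. With the tested genes put in 4 equal bins by GC content, the bin of lowest GC had a median of -0.46 there against the other 6 libraries, and that of highest GC had 0.21. Gabra2 (38.4% GC), Gabrb1 (40.9%), Gabra4 (42.2%), Gabra3 (43.1%) and Gabrb2 (44.0%) belong to the first of these bins, Gabra5 (47.1%) to the second and Gabrd (54.7%) to the last. After correction for GC content and length the median log2 fold change of the members was -0.07, with 6 of 7 again lower (53.4% of all genes) and 0 of 7 at an unadjusted limma p under 0.05 (3.02% of all genes).

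**Figure D3:**
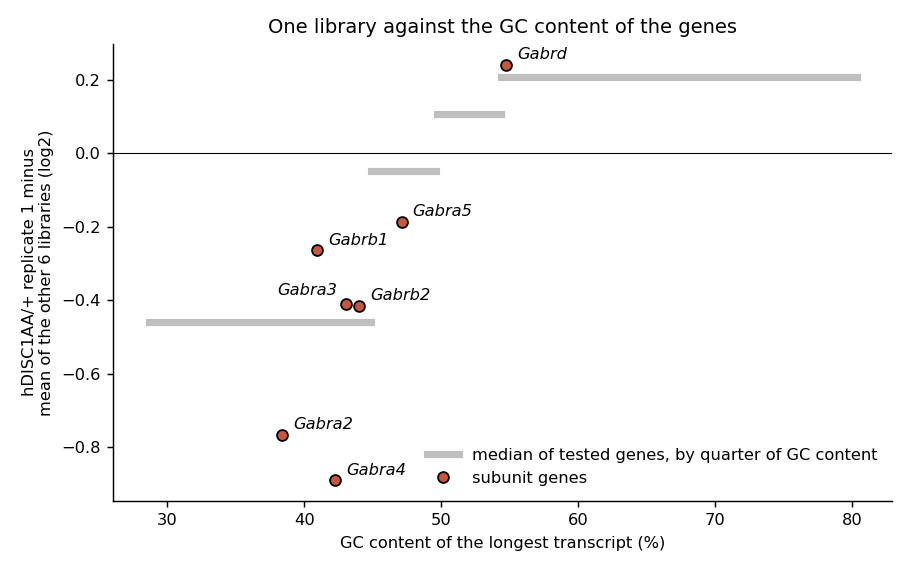
Deviation of hDISC1AA/+ replicate 1 from the mean of the other 6 libraries (log2, vertical axis) against the GC content of each gene's longest transcript (percent, horizontal axis) for the 7 subunit genes (red), with the medians of all tested genes in 4 equal bins of GC content (grey bars). The genes of low GC content lie below 0 and Gabrd, at 54.7%, lies at 0.24. Gabra4 (-0.89) and Gabra2 (-0.77) lie below the median of their bin (-0.46), and Gabra5 (-0.19) below that of its own (-0.05). Gabrb2 (-0.42), Gabra3 (-0.41) and Gabrb1 (-0.26) lie above the median of theirs (-0.46). Gabrd lies just above the median of its bin (0.21).

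Markers of several cell types and regions stood apart in WT replicate 1, the library highest in Gabra2 and Gabrb1. Against the other 6 libraries, endothelial and mural markers were at -1.73 there (mean log2 difference), those of olfactory bulb at -1.0, of striatum at 0.51 and of microglia at 0.48. The mean of the 8 astrocyte markers was 0.64 higher there than in the other 6 libraries (log2), and that of the 9 oligodendrocyte markers 1.49 higher; Slc1a2, the main glutamate transporter of astrocytes, had 154656 normalized counts against 88995 to 123085. In hDISC1AA/+ replicate 1, low in Gabra2, astrocyte markers were at -0.44 and those of choroid plexus at 1.49. Of the choroid plexus list, Ttr was far higher there (758 normalized counts against 14.2 to 41.5). Most others of that list lay within the range of the other libraries. All 8 astrocyte markers were above 0 in every library, with summed levels of 152657 to 227242 in WT and 125787 to 163679 in hDISC1AA/+. Interneuron markers summed to 61289 to 68885 and 57987 to 68048. Their mean log2 difference ran from -0.26 in hDISC1AA/+ replicate 1 to 0.15 in the untitled library. The list was split in hDISC1AA/+ replicate 1. Gad1, Gad2, Vip, Dlx1, Dlx2 and Adarb2 had their lowest value of all libraries there, while Pvalb and Lhx6 had their highest. The remaining interneuron markers had neither. Olfactory bulb markers varied most, from -1.83 in hDISC1AA/+ replicate 1 to 1.30 in the untitled library, both low in Gabrb2. The part of these cell types in the subunit levels was not tested.

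Per length, Gabra3 was the most abundant of the 7 transcripts and Gabrb1 the least. Over all 7 libraries Gabra3 had a mean level of 1889 ± 230.0 normalized counts per kilobase of exons (SD, n = 7). Gabrb2 followed with 1058 ± 195, Gabra4 with 837 ± 165, Gabrd with 815 ± 71.6, Gabra5 with 629 ± 89.7, Gabra2 with 466 ± 123 and Gabrb1 with 90.7 ± 16.9. The ranges were apart between Gabra3 and Gabrb2 and between Gabra2 and Gabrb1. The 4 other neighbouring pairs overlapped, although the order held in 7 of 7 libraries for Gabrd over Gabra5 and in 6 of 7 for Gabrb2 over Gabra4, Gabra4 over Gabrd and Gabra5 over Gabra2. The exon length counts long untranslated parts, 13838 bases in all for Gabrb1 against 1422 coding bases. Per coding kilobase Gabrb1 was again last (882), Gabra2 (2631) stood above Gabra5 (1346) in 7 of 7 libraries, and Gabra3 (4637) stood above Gabrb2 (4382) in 6 of 7.

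**Figure D4:**
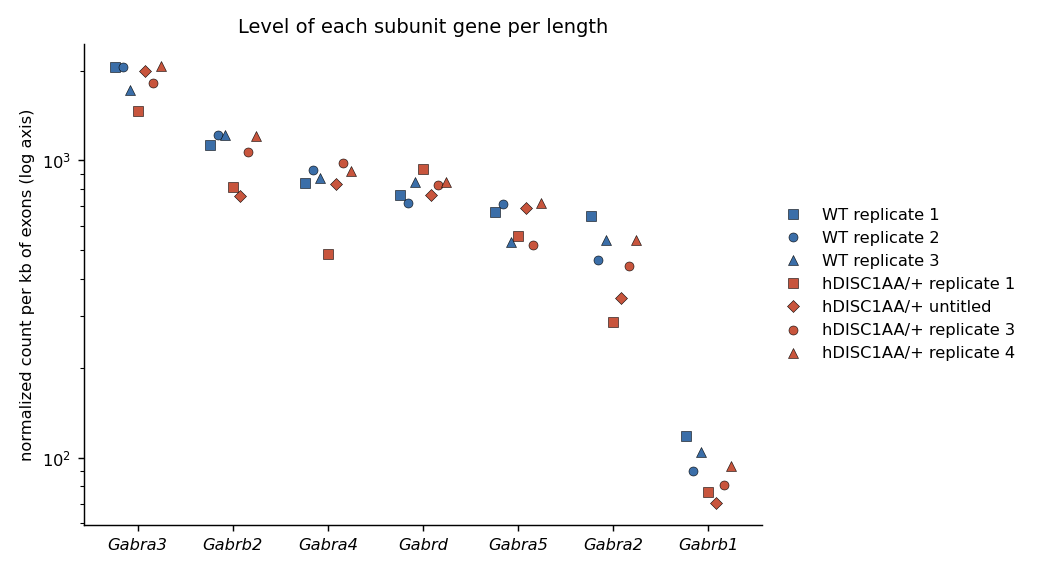
Normalized count per kilobase of exons (vertical log axis) of the 7 subunit genes, ordered by their mean, with 1 symbol per library (WT blue, hDISC1AA/+ red). Gabra3 lies highest, at 1470.1 to 2081, Gabrb1 lowest, at 70.3 to 119, and the middle genes overlap.

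Among the 4 alpha members, with all 7 libraries, the largest difference between the genotypes was in the share of Gabra2, and no share passed the test. Each gene's level per kilobase was taken as a share of the sum over the 4 alpha genes in the same library, a measure that no library scaling can change. Gabra3 made up 48.9%, 49.5% and 47.0% in WT and 52.6%, 51.6%, 48.5% and 48.8% in replicate 1, the untitled library and replicates 3 and 4 of hDISC1AA/+. Of the hDISC1AA/+ shares of Gabra3, 2 lay above the WT range and none below it. The difference was 1.89 percentage points (exact permutation p = 0.286, two-sided, adjusted p = 0.823 over the 6 tests of shares and the ratio). With coding length the share of Gabra3 ran from 36.8% to 44.5% over the libraries. Gabra2 made up 15.4%, 11.1% and 14.7% in WT and 10.2%, 8.92%, 11.7% and 12.7% in hDISC1AA/+ in the same order. Of these, 2 lay below the WT range and none above it (13.7% ± 2.30 and 10.9% ± 1.65, SD; difference -2.83 percentage points; exact permutation p = 0.143, adjusted p = 0.823). Without WT replicate 2 all 4 hDISC1AA/+ shares of Gabra2 lay below WT. The difference was -4.14 percentage points (exact permutation p = 0.0667, the smallest possible there, adjusted p = 0.4). With any other single library left out, the exact permutation p for Gabra2 was 0.2 to 0.333. Without WT replicate 1 Gabra3 differed more (2.11 percentage points) than Gabra2 (-2.01). The same held with all alpha subunit genes as the denominator (2.07 and -1.51). After the GC and length correction the difference of Gabra2 was -1.44 percentage points (exact permutation p = 0.486). Its share in hDISC1AA/+ replicate 1 was then 14.9%.

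Gabra4 held 22.0% ± 2.02 in WT and 21.6% ± 3.57 in hDISC1AA/+ (SD), from 17.3% in hDISC1AA/+ replicate 1 to 26.0% in replicate 3. The sign of its difference (-0.39 percentage points; exact permutation p = 0.829, adjusted p = 0.829) turned with the length used, to 0.31 with coding length. Gabra5 held 15.8% ± 1.31 and 17.1% ± 2.57 (difference 1.33 percentage points; exact permutation p = 0.429, adjusted p = 0.823), with 13.8% in replicate 3 and 19.9% in replicate 1 of hDISC1AA/+. With 35 ways to divide the libraries into 3 and 4, the smallest p that this test can give is 0.0286, so that a single share could not pass after adjustment over 6 tests, and the lack of a call does not show that the shares were alike. With coding length in place of exon length the mean shares in WT were 38.7% for Gabra3, 25.1% for Gabra2, 25.1% for Gabra4 and 11.0% for Gabra5, so that the rank of Gabra2 rests on the length chosen. The 4 genes together made up 57.1% to 64.0% of the summed level of all 6 alpha subunit genes per kilobase.

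The beta class was mostly Gabrb2. Gabrb1 held 9.55%, 6.90% and 7.90% of the level per kilobase of the 2 beta members in WT and 8.58%, 8.46%, 7.04% and 7.21% in hDISC1AA/+, and every hDISC1AA/+ value lay within the WT range (8.12% ± 1.34 and 7.82% ± 0.811, SD; difference -0.29 percentage points; exact permutation p = 0.686, adjusted p = 0.823). The sign of that difference was positive without WT replicate 1 (0.42 percentage points). Against all 3 beta subunit genes, Gabrb2 held 27.1% in the untitled library and 33.0% to 35.8% in the other 6. With that denominator Gabrb1 averaged 3.06% in WT and 2.74% in hDISC1AA/+. There 2 of its hDISC1AA/+ shares lay below the WT range (exact permutation p = 0.314, adjusted p = 0.6). The log2 ratio of Gabrd to Gabra4 per kilobase, genes whose products share a receptor, was -0.13, -0.37 and -0.05 in WT. In hDISC1AA/+ it was 0.96 in replicate 1 and -0.13, -0.24 and -0.13 in the untitled library and replicates 3 and 4 (difference 0.30; exact permutation p = 0.571, adjusted p = 0.823). Without replicate 1 the difference was 0.02.

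**Figure D5:**
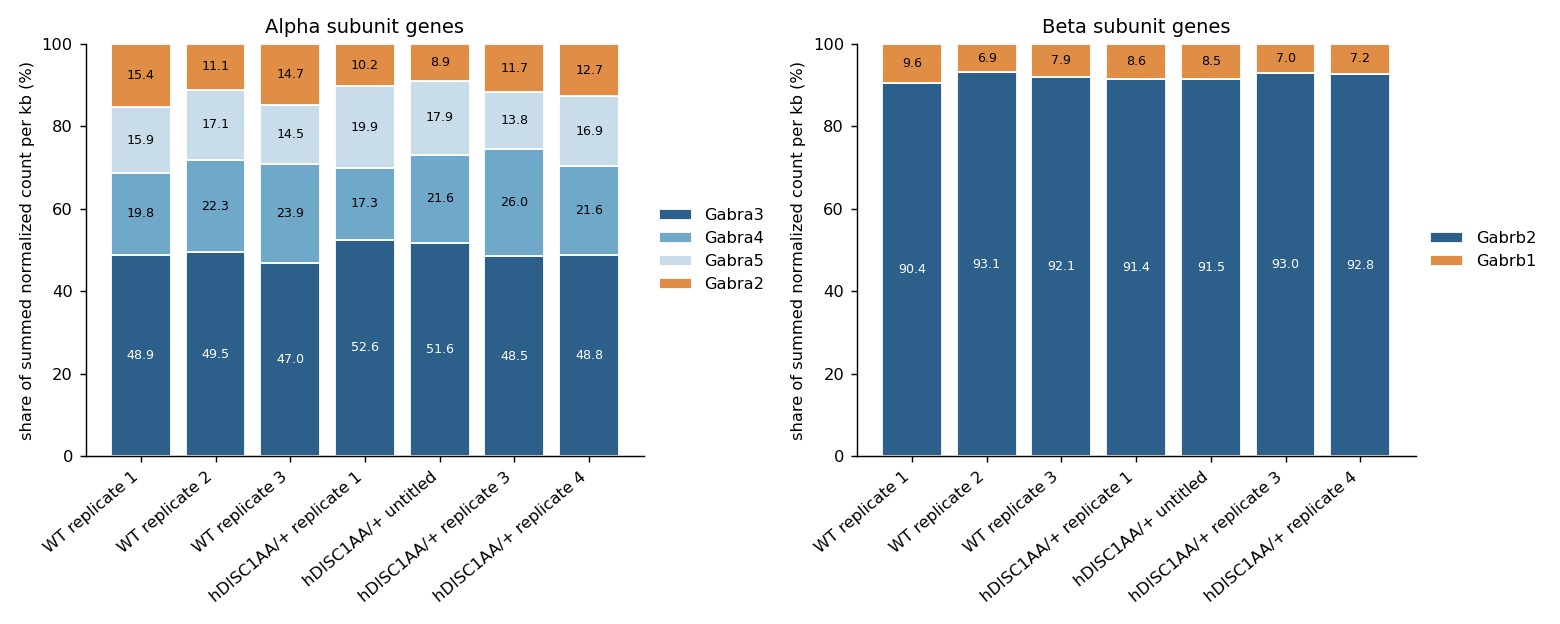
Share (percent of the summed normalized count per kilobase) of each alpha subunit gene (left) and beta subunit gene (right) in each of the 7 libraries. Gabra3 holds 47.0% to 52.6% of the 4 alpha genes and Gabrb2 90.4% to 93.1% of the 2 beta genes.

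The other genes of GABA signalling had no member past the threshold either. Of the 12 other GABA-A subunit genes 8 could be tested, and 6 were lower and 2 higher in hDISC1AA/+ (median log2 fold change -0.23; -0.02 over the 7 that could be tested without the pair of libraries). Those with the smallest p were Gabrg1 (-0.63, 95% CI -1.49 to 0.22), a gamma subunit gene next to Gabra2, Gabrr2 (-0.97, 95% CI -2.28 to 0.35), a rho subunit gene with at most 10.9 normalized counts, and Gabrg3 (-0.21). Gabrg1 was highest in WT replicate 1, at 2365 normalized counts, and lay between 535 and 1287 elsewhere. Without both libraries that stood apart its log2 fold change was 0.002.

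Among 20 genes of GABA-A receptor anchoring, assembly and trafficking, 16 were lower and 4 higher (median -0.07; 52.2% of all genes were lower), with 2 at an unadjusted p under 0.05 (2.44% of all genes). They were Trak2, a trafficking adaptor of kinesin (-0.30, 95% CI -0.55 to -0.06; 9107 ± 1301 normalized counts, SD, for WT against 7345 ± 329), and Plcl1, which encodes the receptor-binding protein PRIP1 (-0.28, 95% CI -0.52 to -0.04; 1832.5 ± 80.5 and 1514 ± 157). In both, all 4 hDISC1AA/+ values lay below the WT range, as they did for 2.84% of all genes, and neither passed after adjustment (limma adjusted p = 0.974). Without the pair of libraries their log2 fold changes were -0.19 and -0.24. The third was Dmd, which encodes dystrophin (-0.30, 95% CI -0.62 to 0.03). Without that pair 16 genes of the list were again lower, not all of them the same (median -0.07; 50% of all genes were lower), since Gabarap and Iqsec3 turned higher and Nlgn2 and Shisa7 lower; these 4 were named after their values were seen.

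The 8 genes of GABA synthesis, release, uptake and breakdown held 4 lower and 4 higher genes (median -0.01), a split that moved to 7 lower and 1 higher without WT replicate 1 and to 2 lower and 6 higher without the pair of libraries. Those with the smallest p were Abat, the GABA transaminase (-0.11), the transporter gene Slc6a13 (0.36; -0.05 without WT replicate 1, its lowest library) and Aldh5a1 (-0.08), which completes GABA breakdown. Of 7 chloride transporter and carbonic anhydrase genes 3 were lower and 4 higher (median 0.00087), with Wnk1, a kinase that controls chloride transporters, at -0.14, Car7 at 0.17 (0.06 without the pair of libraries) and Slc12a2, the importer NKCC1, at -0.24 (-0.07 without hDISC1AA/+ replicate 1). Of 9 genes of GABA-B receptors and their effectors 8 were lower (median -0.20; -0.01 without hDISC1AA/+ replicate 1), with the potassium channel genes Kcnj6 at -0.24 and Kcnj9 at 0.12 (0.01 without WT replicate 1) and the auxiliary subunit gene Kctd16 at -0.20.

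The genes nearest to the mean profile of the 7 members across the 7 libraries were not genes of GABA signalling. By the root mean square difference of log2 deviations they were Pdik1l, a kinase gene (0.023), Nalcn, a sodium leak channel gene (0.030), Dcp2, which encodes an mRNA decapping enzyme (0.036), the unnamed ENSMUSG00000103104 (0.036) and Stxbp5, which encodes a tomosyn (0.037). Those of known GC content had 42.2% to 44.5%, within the bin of lowest GC content (up to 44.9%). The part of base composition in this likeness was not tested. Of the members Gabra3 lay nearest to their mean (0.12) and Gabrd furthest (0.25), with 832 and 7618 of the 17670 tested genes nearer. The mean profile was lowest in hDISC1AA/+ replicate 1 (-0.33) and highest in WT replicate 1 (0.18), with hDISC1AA/+ replicate 4 (0.16) next.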

How the data were processed

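RNA sequencing libraries of mouse prefrontal cortex were made, per the labels' protocols, from Trizol RNA with a NEBNext Ultra kit. Listed in the submitters' processing notes, without roles, are the build mm10 and the tools DESeq2 1.26.0, HTSeq 0.6.1, HISAT2 2.1.0 and Trimmomatic 0.39; the annotation, strand setting and handling of multiply mapping reads were not given in the sources used here. Per gene and library the authors deposited 1 signal value: 100% of values above 0 in each column were whole multiples of 1 step (tolerance 0.01 reads), so they are counts divided by a size factor, and reads were recovered by division. For 3 genes identifier and values stood on separate lines; these were left out (at most 0.0169% of the values).

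Genes that reached a value of 10 in 3 or more libraries were tested with limma 3.58.1 (trend, robust) on log2(value + 1), which understates changes of low genes, two-sided, with Benjamini-Hochberg adjustment at 0.05. The recovered reads went into edgeR 4.0.16 (quasi-likelihood) and DESeq2 1.42.0. Shares were compared by exact permutation of group labels. The GC and length correction removed, per library, a spline fit (5 degrees of freedom each) of log2 deviations from the gene means. Symbols, lengths and coordinates come from GENCODE M21, which held 42545 of the identifiers; promoter windows were found for 6 of the 7 members. The calculations were tested on simulated data. The members and gene lists were chosen with earlier results of these data known. All members were named, with up to 3 genes per list by smallest p, the 5 nearest genes and Disc1. The markers Slc1a2 and Ttr were named too, each with the largest mean of its list. Interneuron markers were named where lowest or highest in hDISC1AA/+ replicate 1, after their values were seen. Between pairs of libraries the chi-square per degree of freedom was 11.5 to 177, so none was a copy.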

Additional observations from a re-analysis of the deposited data

Results flagged for a closer look

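The log2 ratio of Gabrd to Gabra4 per kilobase in hDISC1AA/+ had 1 library far from the others: replicate 1 at 0.96 against -0.24 to -0.13 in the other 3, a gap of 0.905 of the group's whole range (Dixon's 95% critical value for 4 samples, computed here for normal values, is 0.83). Of 13 measures checked this way 1 stood out, and chance flags about 1 in 20 groups. After correction for GC content and length the same library had 0.49 and the other 3 had -0.18 to -0.01; the part of base composition in this ratio was not tested further.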

How the results depend on the processing

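The number of members called and the number of genes called were 0 under all 18 alternatives (smallest adjusted p 0.392, with limma array weights). The log2 fold changes of Gabra2 (-0.63 to -0.20), Gabrb1 (-0.48 to -0.20) and Gabrb2 (-0.45 to -0.22) kept their sign in all 18, and those of the others turned in some. With array weights, which rest the WT side mostly on replicate 3 (weight 5.23), they were 0.11 for Gabra3, 0.0036 for Gabra4, 0.15 for Gabra5 and -0.000255 for Gabrd. CPM scaling gave 0.050 for Gabra5 and moved the median of all genes to 0.08. Without WT replicate 1 and hDISC1AA/+ replicate 1 together they were 0.060 for Gabra3, 0.013 for Gabra4 and 0.054 for Gabra5. With each library left out in turn they ranged from -0.17 to 0.017 for Gabra3, from -0.29 to 0.049 for Gabra4 and from -0.16 to 0.050 for Gabra5.

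The difference in the share of Gabra4 was 0.071 percentage points with all alpha subunit genes as the denominator, 0.18 without division by length and 0.31 with coding length, and ranged from -1.85 to 1.06 with each library left out. That of Gabrb1 was 0.33 after the GC and length correction, 0.17 without the pair of libraries, and -0.90 to 0.42 with each library left out. The other shares and the ratio kept their sign in all 12 alternatives, and no share passed in any; with a library left out the smallest p is 0.0667 or 0.1. No paired analysis was possible because the labels number no replicates across the groups. Counting error was at most 3.27% of a member's value, smaller than the SD between libraries of each group for every member.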
